A study of Mus musculus with 4 samples.

Results

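Interferon regulatory factors are a small family of DNA-binding proteins, and 8 of their genes (Irf1, Irf2, Irf3, Irf4, Irf5, Irf7, Irf8 and Irf9) were followed in stem cell-enriched mouse bone marrow. A gene was measured by the row of the deposited array table that carries its symbol and no other, and, where there were several such rows, by the row with the highest mean over the 4 arrays. This gave a row to 7 of the 8 genes, of 22180 genes with a row of their own in the whole table. Irf5 shares its row with Tnpo3 and has none of its own. Irf8 was included because its signal differed between the groups, so its difference is described here without a test.

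The cells were Thy1+ LSK cells sorted from bone marrow, the fraction without lineage markers, positive for Sca-1, Kit and Thy1, in which haematopoietic stem cells are concentrated. Of the 4 whole-transcript arrays, 2 were labelled Nol3-/- MPN (both copies of Nol3 lost, MPN taken as myeloproliferative neoplasm) and 2 were labelled Nol3+/+ (wild type for Nol3). All animals were untreated C57BL/6 mice between 11 and 18 months old, and the sample labels give the disease only to the Nol3-/- group, although the title and the design text can be read as giving it to both genotypes. The labels give neither the sex of the animals nor whether an array held the RNA of 1 mouse or of several, so p-values measure the spread between these arrays, which may be technical.

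The factors share an N-terminal DNA-binding domain that reads repeats of GAAA, the core of the interferon-stimulated response element (ISRE). Irf3 and Irf7 are phosphorylated after nucleic acids are sensed and switch on interferon genes, Irf9 carries type I interferon signals to DNA together with Stat2, and Irf1 and Irf2 act on many of the same elements as activator and antagonist. Irf4 and Irf8 bind DNA together with ETS factors such as PU.1 in lymphoid and myeloid cells. In mice Irf8 is needed for monocyte and dendritic cell development and restrains granulocyte output, and Irf2 protects haematopoietic stem cells from continuous interferon signalling.

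Promoter sequences are shown for the members that hold a motif of the interferon response in the 250 bases before a gene start, since the interferon genes, STATs and target genes described further on act through such motifs. Sequences came from RefSeq (GRCm38.p6), 5′ to 3′ on the strand of the gene, and all 8 genes had at least 1 window. Capitals mark matches to GAS, the STAT-binding element TTCNNNGAA, or, in Irf2, to ISRE (GAAA, any 2 bases, GAAA). Both strands were searched. The Irf8 window, the one before the earlier of its 2 annotated starts, lies at chr8:120736108-120736357 on the plus strand, and the shorter stretches lie at chr11:53769913-53769942 (Irf1) and chr8:46739495-46739524 (Irf2), also on the plus strand.
Irf8: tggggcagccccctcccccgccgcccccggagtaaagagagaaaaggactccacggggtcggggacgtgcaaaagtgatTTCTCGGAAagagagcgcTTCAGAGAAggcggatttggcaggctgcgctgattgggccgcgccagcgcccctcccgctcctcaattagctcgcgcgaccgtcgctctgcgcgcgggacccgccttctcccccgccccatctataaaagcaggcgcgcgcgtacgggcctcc
Irf1: aacagcctgatTTCCCCGAAatgatgaggc
Irf2: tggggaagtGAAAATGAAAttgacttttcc

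The Irf8 window held 2 GAS matches, which start 171 and 153 bases before the gene start, and its GC content was 67.2%. Irf1 held 1 GAS match, which starts 90 bases before the gene start. Irf2 held an ISRE match, a GAS match and a match to the ETS-IRF element (GGAA, any 2 bases, GAAA) that overlaps the ISRE match. In all, 3 of the members' 11 windows held GAS, against 7.02% of 32851 windows of all genes. ISRE was in 1 of the 11, against 2.98% of all windows, and the ETS-IRF element in 1 of the 11, against 2.30%. A match describes letters only and does not show that a factor binds there.

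The 4 arrays had medians between 5.35 and 5.39 log2 units and correlated across genes at r = 0.899 to 0.949. Nol3+/+ replicate 1 stood apart, at r = 0.899 and 0.908 with the Nol3-/- MPN arrays and 0.911 with the other array of its group, while Nol3+/+ replicate 2 reached 0.929 and 0.945 with the Nol3-/- MPN arrays. The Nol3 row read 5.38 and 5.50 in Nol3-/- MPN arrays and 5.31 and 5.52 in Nol3+/+ arrays, and since the place of the deletion relative to its probes is not given, it does not check the genotype labels. Cd34, listed here among genes of Thy1+ LSK identity, was not a marker of the sort. It read 8.71 and 8.78 in Nol3-/- MPN arrays and 8.82 and 8.65 in Nol3+/+ arrays. Kit read 8.38 and 7.39 in Nol3-/- MPN arrays and 8.07 and 8.10 in Nol3+/+ arrays. Thy1, at 4.64 and 5.24 in Nol3-/- MPN arrays and 4.74 and 5.02 in Nol3+/+ arrays, lay near 4.835, the limit below which a gene's mean was treated as dim (the 25th percentile), and Ly6a, the Sca-1 gene, was not analysed here. Of 10 tested genes of Thy1+ LSK identity, 1 was lower in Nol3-/- MPN at an unadjusted p under 0.05, against 2.07% of all tested genes, and 0 were higher, against 3.73%. It was Hlf, a stem cell transcription factor gene, at 5.37 and 5.50 in Nol3-/- MPN arrays and 6.44 and 6.09 in Nol3+/+ arrays (log2 difference -0.83, limma adjusted p = 0.841). The groups did not overlap for 3 of the 10 with Nol3-/- MPN higher (Mecom, Esam and Gata2, at log2 differences of 0.31, 0.12 and 0.05). They did not overlap for 2 with it lower, Hlf and Procr. Of all 16635 tested genes, 3269 did not overlap with Nol3-/- MPN higher and 2640 with it lower. Procr read 7.85 and 7.87 in Nol3-/- MPN arrays and 8.15 and 8.11 in Nol3+/+ arrays. The part of the makeup of the sorted cells in the differences below was not tested. Xist, the RNA that coats the inactive X chromosome, read 10.9 and 10.7 in Nol3-/- MPN arrays and 5.43 and 5.28 in Nol3+/+ arrays, so genotype, disease label and sex-linked signal cannot be told apart in any difference below. Over 16635 tested genes, limma called 4 at a Benjamini-Hochberg adjusted p under 0.05 (0.0240%). With 1 array left out that count was 18 (Nol3+/+ replicate 1), 39 (Nol3+/+ replicate 2) or 0 (either Nol3-/- MPN array, with 572 and 818 genes at an unadjusted p under 0.05), and it was 0 without X- and Y-linked genes, where 898 genes had an unadjusted p under 0.05. A fit with 1 array left out has a lone array in 1 group, which is assumed to vary like the other group, so its counts are no check of stability.

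Irf8 had lower values in Nol3-/- MPN. The row used read 6.41 and 5.65 in Nol3-/- MPN arrays, against 7.996 and 7.73 in Nol3+/+ arrays (deposited log2 signal). Both Nol3-/- MPN arrays lay below both Nol3+/+ arrays, with a gap of more than 1 log2 unit between the groups. The means were 6.03 ± 0.54 in Nol3-/- MPN and 7.86 ± 0.19 in Nol3+/+ (SD, n = 2 each). The log2 difference was -1.83 (standard error 0.32, from the moderated variance of limma and not from these SDs), a 3.56-fold lower signal in Nol3-/- MPN. Without Nol3+/+ replicate 1 it was -1.70. Of all tested genes, 33 had a difference at least as low as that of Irf8, itself included. In bulk RNA, fewer cells that express a gene and less of its RNA per cell cannot be told apart.

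The second row of Irf8 showed a much smaller difference. It read 5.30 and 5.23 in Nol3-/- MPN arrays, against 5.39 and 5.44 in Nol3+/+ arrays. The groups again did not overlap and Nol3-/- MPN was again lower, but the log2 difference was -0.15, a 1.11-fold lower signal. Means over the 4 arrays were 6.95 for the row used (17548703) and 5.34 for the other (17506279), so the rule that takes the row with the highest mean decides the size of the Irf8 difference. With the mean of both rows the log2 difference was -0.99. The annotation used here does not say which part of the gene each row measures.

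**Figure D1:**
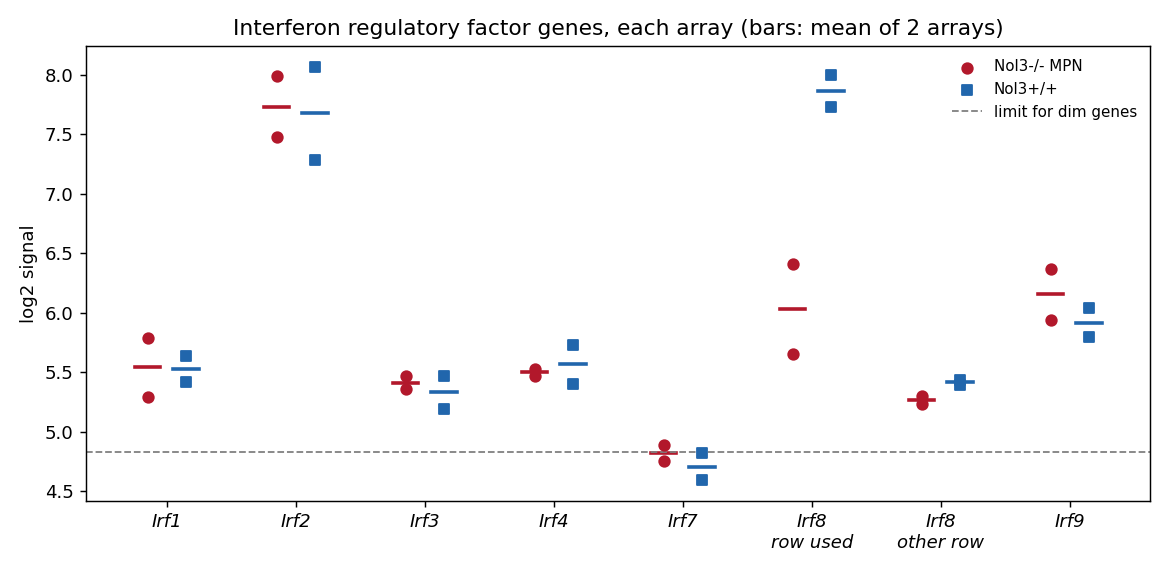
Deposited log2 signal (y axis) of each array for the 7 genes with a row of their own, with both rows of Irf8, Nol3-/- MPN (red circles) left of Nol3+/+ (blue squares), short bars at the mean of 2 arrays and a dashed line at the dim limit of 4.835. The groups lie apart for the Irf8 row used (6.41 and 5.65 against 7.996 and 7.73) and narrowly apart for its other row, and they overlap for the other 6 genes; heights are not to be compared between genes.

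Disagreement of this size between the rows of a gene was uncommon in the table. The differences of the Irf8 rows lay 1.68 log2 units apart. Of 1082 genes with several rows, 16 (1.48%) had a gap at least as large between the row with the highest and the row with the lowest mean, Irf8 included, and the median gap was 0.22. In 14 of the 1082 genes the row used was at least 2-fold lower in Nol3-/- MPN. In 6 of these 14 the other row was at least 2-fold lower too, and Irf8 was not among them.

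**Figure D2:**
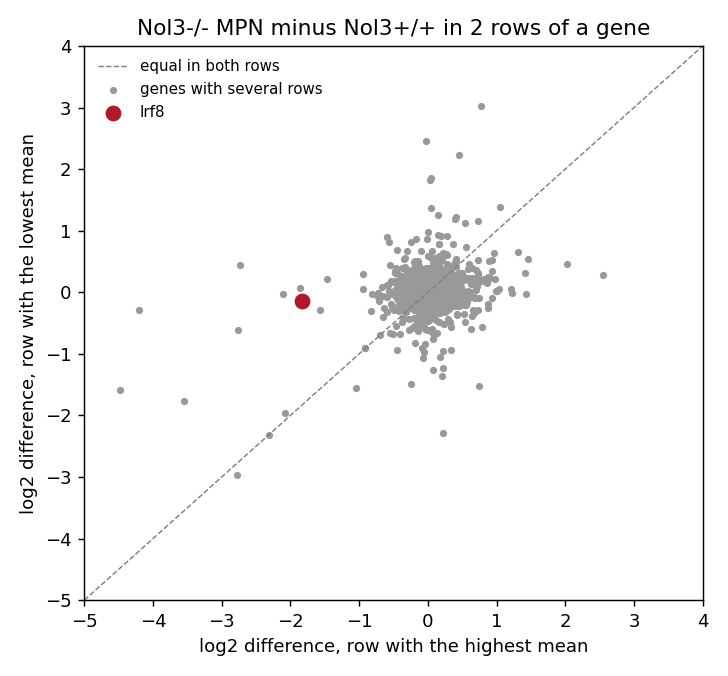
Log2 difference, Nol3-/- MPN minus Nol3+/+, of the row with the highest mean (x axis) against that of the row with the lowest mean (y axis) for 1082 genes with several rows; the dashed line marks equal differences. Irf8 (red) lies at -1.83 on the x axis and -0.15 on the y axis, far from that line.

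The row used for Irf8 also differs from the other member rows in its place in the table. Row numbers run along the chromosomes in order, up to the end of the last long run (at least 30 rows in a row from 1 chromosome), on the X chromosome. The Irf8 row used is numbered after that point, apart from the other genes of chromosome 8, whereas its second row and the rows of the other 6 genes lie within the runs. This division was made after the data were seen. Of 256 rows after the runs that were not dim and not X- or Y-linked, 6.25% differed at least 2-fold between the groups, against 1.68% of 16582 such rows within the runs. Replicate arrays of a group lay at least 2-fold apart in 16.0% of the rows after the runs, against 5.73% of those within them. The part of this in the Irf8 difference was not tested.

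For each of the other 6 genes with a row of their own, the arrays of the groups overlapped. Irf1, an activator of antigen presentation and other interferon-response genes, read 5.79 and 5.30 in Nol3-/- MPN arrays, against 5.64 and 5.42 in Nol3+/+ arrays. The Nol3-/- MPN arrays lay on either side of the Nol3+/+ arrays. The log2 difference was 0.02, with a 95% interval from -0.51 to 0.54 (limma adjusted p = 0.998).

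Irf2, the antagonist of Irf1, read 7.99 and 7.47 in Nol3-/- MPN arrays, against 8.07 and 7.28 in Nol3+/+ arrays. Replicate 1 was the higher array in both groups, and the spread within a group exceeded the difference between groups. The log2 difference was 0.06 (limma adjusted p = 0.995). Its interval, -0.86 to 0.97, was the widest among the tested members other than Irf8, and a difference of up to nearly 2-fold in either direction lies within it.

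Irf3, which is phosphorylated by Tbk1 after nucleic acids are sensed, read 5.47 and 5.36 in Nol3-/- MPN arrays, against 5.47 and 5.19 in Nol3+/+ arrays, and the groups overlapped. The log2 difference was 0.08, with an interval from -0.30 to 0.47 (limma adjusted p = 0.958). Irf7, which amplifies type I interferon production and is itself interferon-inducible, read 4.75 and 4.89 in Nol3-/- MPN arrays, against 4.60 and 4.82 in Nol3+/+ arrays. Its mean of 4.76 lay just under the dim limit of 4.835, so it was not tested. The row that Irf5, a factor acting downstream of Toll-like receptors, shares with Tnpo3 read 4.82 and 5.08 in Nol3-/- MPN arrays, against 4.83 and 4.83 in Nol3+/+ arrays. It cannot be assigned to either gene.

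Irf9, the DNA-binding partner of Stat2, read 5.94 and 6.37 in Nol3-/- MPN arrays, against 5.79 and 6.04 in Nol3+/+ arrays. The groups overlapped, and their means differed by less than the Nol3-/- MPN arrays did from each other. The log2 difference was 0.24, with an interval from -0.30 to 0.78 (limma adjusted p = 0.896). Irf4, the close relative of Irf8 in lymphoid cells, read 5.47 and 5.53 in Nol3-/- MPN arrays, against 5.41 and 5.73 in Nol3+/+ arrays. Both Nol3-/- MPN arrays lay between the Nol3+/+ arrays, and the log2 difference was -0.07, with an interval from -0.47 to 0.34 (limma adjusted p = 0.970).

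**Figure D3:**
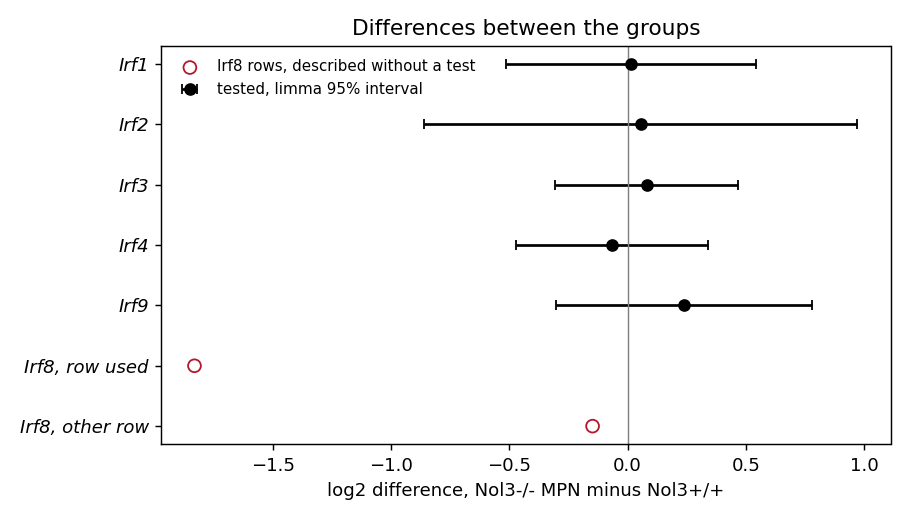
Log2 difference, Nol3-/- MPN minus Nol3+/+ (x axis), for the 5 tested members other than Irf8 (black, bars are limma 95% intervals) and for the rows of Irf8 (open red circles, no test). The intervals of Irf1, Irf2, Irf3, Irf4 and Irf9 all contain 0, and the Irf8 rows lie at -1.83 and -0.15.

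As a family, 6 of the 8 genes passed the limit for dim genes. Irf8, chosen for its difference, is left out of the counts that follow. Of the other 5, 0 passed the limma adjusted threshold of 0.05 over all genes, against 0.0240% of all tested genes, and 0 had an unadjusted p under 0.05, against 5.80%. The groups overlapped for all 5, whereas they did not overlap for 35.5% of all tested genes. With Irf8 included, the median log2 difference of the 6 was 0.04, against 0.01 for all tested genes.

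The genes whose profile over the 4 arrays was most like that of Irf8 were picked by the smallest Euclidean distance between row-centred log2 signals, passing over predicted, small RNA and chemosensory receptor genes. They were Uty at a distance of 0.86, Fam3c at 0.86, Astx5 at 0.88, Ssxb6 at 0.90 and Clock at 0.96 log2 units. Uty is Y-linked and Astx5 and Ssxb6 are X-linked, so 3 of the 5 lie on the sex chromosomes, whose signal follows the same division of the arrays. Fam3c, a secreted protein gene on chromosome 6, read 7.39 and 6.84 in Nol3-/- MPN arrays, against 8.77 and 7.77 in Nol3+/+ arrays. Clock, the circadian transcription factor gene on chromosome 5, read 5.35 and 5.70 in Nol3-/- MPN arrays, against 6.99 and 6.61 in Nol3+/+ arrays. For all 5 the groups did not overlap, with Nol3-/- MPN lower. Having been picked for likeness to Irf8 over these same arrays, they were almost bound to show this.

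Irf8 and Nol3 both lie on chromosome 8, with 144 tested genes between them. Of the 20 nearest tested genes, 10 on each side of Irf8, 1 had an unadjusted p under 0.05 with a higher value in Nol3-/- MPN, against 3.73% of all tested genes, and 0 had one with a lower value, against 2.07%. None of the 20 passed the limma adjusted threshold, and their median log2 difference was -0.04. The 1 gene was Cox4i1, a subunit of cytochrome c oxidase and the nearest tested gene before Irf8, named after its values were seen. It read 8.20 and 8.25 in Nol3-/- MPN arrays, against 5.83 and 7.18 in Nol3+/+ arrays, with the Nol3+/+ arrays more than 1 log2 unit apart.

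The genes that feed signals into the factors were measured next. Nucleic acid sensors, adaptors and kinases upstream of the factors had 23 tested genes. Of these, 0 had an unadjusted p under 0.05, against 5.80% of all tested genes, so a count of 0 in so short a list says little. None of the 23 passed the limma adjusted threshold, and the median log2 difference was 0.05. Those with the smallest p were Ddx58, the RNA sensor RIG-I, Traf6, a ubiquitin ligase of Toll-like receptor signalling, and Ikbke, a kinase of Irf3 and Irf7. Ddx58 read 6.37 and 6.08 in Nol3-/- MPN arrays, against 5.36 and 5.99 in Nol3+/+ arrays. The groups stood apart by less than the spread of the Nol3+/+ arrays, and the log2 difference was 0.55 (interval -0.10 to 1.20, limma adjusted p = 0.841). Traf6 differed by 0.28 and Ikbke by -0.33 on the log2 scale, both with intervals that contain 0 (limma adjusted p = 0.841 for each).

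Interferon genes had 13 tested members and a median log2 difference of -0.03. Of the 13, 0 had an unadjusted p under 0.05, against 5.80% of all tested genes. Ifna2 read 6.63 and 6.75 in Nol3-/- MPN arrays, against 6.91 and 8.29 in Nol3+/+ arrays (log2 difference -0.91, limma adjusted p = 0.841). Nol3+/+ replicate 2 stood more than 1 log2 unit above the other 3 arrays. Ifna15 and Ifna6 differed by -0.85 and -0.31, and since the type I interferon genes are similar in sequence, these rows are uncertain as measures of 1 gene.

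The receptors of interferons with their kinases and STATs had 10 tested members, with log2 differences between -0.13 and 0.31 and a median of 0.02. Of the 10, 0 had an unadjusted p under 0.05, against 5.80% of all tested genes. Jak2, the kinase most often mutated in human myeloproliferative neoplasms, read 7.86 and 7.45 in Nol3-/- MPN arrays, against 7.19 and 7.60 in Nol3+/+ arrays, and the groups overlapped. Stat2, the partner of Irf9, differed by -0.13, and Ifnar2, a chain of the type I interferon receptor, by 0.31 (limma adjusted p = 0.927 and 0.942).

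Factors that bind DNA with the members or regulate them had 17 tested genes and a median log2 difference of 0.06. Of the 17, 0 had an unadjusted p under 0.05, against 5.80% of all tested genes. Junb, an AP-1 subunit that joins Batf factors and Irf4 or Irf8 on composite elements, read 5.09 and 5.09 in Nol3-/- MPN arrays, against 5.54 and 5.28 in Nol3+/+ arrays. Batf3, which works with Irf8 in classical dendritic cells, read 6.08 and 6.30 in Nol3-/- MPN arrays, against 6.41 and 6.58 in Nol3+/+ arrays. Both genes were lower in each Nol3-/- MPN array than in each Nol3+/+ array, with log2 differences of -0.32 and -0.30, and neither passed the threshold (limma adjusted p = 0.841 and 0.860). Irf2bpl, a relative of the Irf2 corepressors, differed by -0.35 (limma adjusted p = 0.863). The whole list did not lean this way, with 10 of the 17 differences above 0 and 7 below. The groups did not overlap for 3 of the 17 with Nol3-/- MPN lower and for 3 with it higher. Of all 16635 tested genes, 2640 did not overlap with it lower and 3269 with it higher.

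Downstream of Irf8, monocyte and dendritic cell genes had 18 tested members and a median log2 difference of -0.06, and 0 passed the limma adjusted threshold. At an unadjusted p under 0.05, 1 was lower, against 2.07% of all tested genes, and 0 were higher, against 3.73%. That gene, H2-Aa, which encodes an MHC class II chain, read 4.91 and 5.68 in Nol3-/- MPN arrays, against 6.35 and 6.03 in Nol3+/+ arrays (log2 difference -0.89, limma adjusted p = 0.841). Id2, an inhibitor of E proteins needed for dendritic cell development, read 4.73 and 5.04 in Nol3-/- MPN arrays, against 5.18 and 5.75 in Nol3+/+ arrays. Ly6c2, a surface marker of inflammatory monocytes, read 5.17 and 4.87 in Nol3-/- MPN arrays, against 6.33 and 5.25 in Nol3+/+ arrays. All 3 genes, which have the smallest p of the list, had lower values in both Nol3-/- MPN arrays. Id2 and Ly6c2 had intervals that contain 0. H2-Ab1, another MHC class II gene, read 7.55 and 8.13 in Nol3-/- MPN arrays, against 8.27 and 7.88 in Nol3+/+ arrays. Its groups overlapped, with a log2 difference of -0.24. Of the 18 list differences, 12 were below 0 and 6 above, against 8030 and 8605 of all 16635 tested genes. Of the 18, the groups did not overlap for 4 with lower values in Nol3-/- MPN, against 2640 of all 16635 tested genes. They did not overlap for 1 with higher values, against 3269 of all tested genes. With 1 array left out, the median log2 difference of this list lay between -0.19 and -0.0007.

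Markers of mature cell types, among them those known to express Irf8, were set beside its signal. Of 9 tested monocyte and macrophage markers, 2 had higher values in Nol3-/- MPN at an unadjusted p under 0.05 (Ms4a6c at a log2 difference of 0.83 and Adgre1 at 0.37), against 3.73% of all tested genes, and 0 had lower ones, against 2.07%. Ly6c2, also on this list, was at -0.77. Mean log2 signals over that list were 5.68 and 5.77 in Nol3-/- MPN arrays and 5.55 and 5.66 in Nol3+/+ arrays, with 3 of its 12 rows dim. Dendritic cell markers averaged 6.21 and 6.32 in Nol3-/- MPN arrays and 6.29 and 6.27 in Nol3+/+ arrays. Of 9 tested, 0 had an unadjusted p under 0.05, against 5.80% of all tested genes in either direction. B cell markers, another lineage that expresses Irf8, averaged 5.10 and 5.19 in Nol3-/- MPN arrays and 5.04 and 4.99 in Nol3+/+ arrays, with 4 of 9 rows dim. All 5 tested B cell differences were above 0, against 8605 of all 16635 tested genes. Of the 5, 1 was higher at an unadjusted p under 0.05 (Cd79b at 0.50), against 3.73% of all tested genes. Granulocyte markers averaged 6.28 and 6.33 in Nol3-/- MPN arrays and 6.18 and 6.56 in Nol3+/+ arrays. Of 10 tested, 2 were lower in Nol3-/- MPN at that p (S100a8 at -0.86 and S100a9 at -0.83), against 2.07% of all tested genes. Another 1 was higher (Prtn3 at 0.50), against 3.73%. T and NK cell markers averaged 5.76 and 5.79 in Nol3-/- MPN arrays and 5.70 and 5.62 in Nol3+/+ arrays, and erythroid markers 6.55 and 6.65 in Nol3-/- MPN arrays and 6.65 and 6.53 in Nol3+/+ arrays. At that p, 1 of 9 tested T and NK cell markers was higher (Nkg7 at 0.86), against 3.73% of all tested genes. Of 6 erythroid markers, 0 differed at that p, against 5.80% in either direction. The part of other cell types in the Irf8 signal was not tested.

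Interferon-inducible genes, the common targets of the family, had 20 tested members with a median log2 difference of 0.32, against 0.01 for all tested genes, and 0 passed the limma adjusted threshold. The median was 0.18 over all 27 genes of the list with a row and 0.52 over the 16 above the median of mean signal. At an unadjusted p under 0.05, 4 of the 20 were higher in Nol3-/- MPN, against 3.73% of all tested genes, and 0 were lower. Irgm2, an interferon-inducible GTPase, read 7.90 and 7.33 in Nol3-/- MPN arrays, against 6.11 and 6.29 in Nol3+/+ arrays (log2 difference 1.42, limma adjusted p = 0.775). Ifi27 read 8.66 and 7.95 in Nol3-/- MPN arrays, against 7.20 and 7.51 in Nol3+/+ arrays, and Gbp3, a guanylate-binding protein gene, read 7.68 and 7.67 in Nol3-/- MPN arrays, against 7.13 and 7.04 in Nol3+/+ arrays. These 3 genes have the smallest p of the list, and their groups did not overlap. Of the 20 tested genes, 7 did not overlap with Nol3-/- MPN higher, against 3269 of all 16635 tested genes. With Nol3-/- MPN lower the count was 0 of the 20, against 2640 of all tested genes. The median of the 20 was 0.16 without Nol3-/- MPN replicate 1 and 0.29 without Nol3-/- MPN replicate 2. It was 0.28 without Nol3+/+ replicate 1 and 0.37 without Nol3+/+ replicate 2. Over the 6 lists described from the sensors to these genes, 5 of 101 tested genes (4.95%) had an unadjusted p under 0.05, against 5.80% of all tested genes. With 1 array left out the share was 5.94% of the 101 against 5.57% of all tested genes (Nol3+/+ replicate 1), 13.9% against 11.4% (Nol3+/+ replicate 2), 1.98% against 3.44% (Nol3-/- MPN replicate 1) and 7.92% against 4.92% (Nol3-/- MPN replicate 2).

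**Figure D4:**
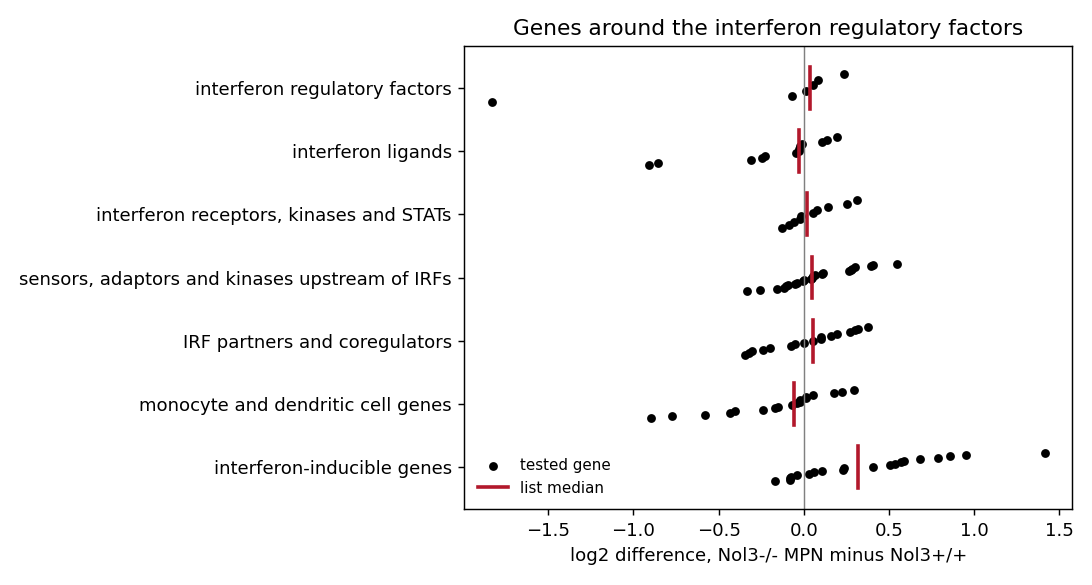
Log2 difference, Nol3-/- MPN minus Nol3+/+ (x axis), of each tested gene (black points) of the interferon regulatory factors and of 6 lists of genes around them, with red bars at each list's median. Irf8 stands alone at -1.83 in the top line, and the medians lie between -0.06 and 0.06 except that of the interferon-inducible genes at 0.32.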

How the data were processed

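Per the labels' protocols, total RNA was amplified isothermally from single primers, then biotin-labelled for whole-transcript arrays. The Transcriptome Analysis Console and Affymetrix Expression Console processed the scans, per the submitters' processing notes; how background and normalization were handled, and the versions, are not given in the sources used. The authors deposited a table of 41345 rows, whose values were treated here as log2 signals, a scale taken from their range (2.84 to 13.5); the base is not stated. The number of arrays limits the precision.

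Of all rows, 23521 carry 1 gene symbol in the platform annotation. Genes under the 25th percentile of mean signal (4.835) were left out. Differences, Nol3-/- MPN minus Nol3+/+, were fitted with limma 3.58.1 under R 4.3.3 (lmFit, eBayes with a variance trend, 2 residual degrees of freedom), with Benjamini-Hochberg adjustment over all 16635 genes tested. In simulated data, limma called 5 of 100 genes changed by 1 log2 unit and 66 of 100 changed by 2. From each gene list the 3 tested genes with the smallest p are named; other list members serve as examples. The members and lists were chosen with earlier results of these data known. Same-numbered arrays deviated together at r = 0.05 across genes, so the numbers were not used to pair them.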

Additional observations from a re-analysis of the deposited data

How the results depend on the processing

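In all, 16 alternatives were run, and Irf3 has values under 15 of them, since a dim limit at the median removes it. The Irf8 log2 difference of -1.83 was -0.15 with the row of lowest mean and -0.99 with the mean of its rows. It lay between -2.21 and -1.45 when 1 array was left out. With the replicate number as a block it was -1.83 again. Each number occurs once in each group, so a block cannot change a difference and is no check of its size. The count of all genes past the adjusted threshold, 4, was 0 with the replicate block (972 genes at an unadjusted p under 0.05), 0 in the ordinary test without moderated variance (878 genes) and 0 without X- and Y-linked genes (898 genes). It was between 0 and 39 with 1 array left out. The 5 genes of the surrounding lists at an unadjusted p under 0.05 were 3 in the ordinary test, 3 after quantile normalization and between 2 and 14 with 1 array left out. Fits with 1 array left out assume that the lone array varies like the other group. Of Irf1, Irf2, Irf3, Irf4 and Irf9, none passed the adjusted threshold under any alternative that tested it. At an unadjusted p under 0.05, 4 of 20 interferon-inducible genes were higher as reported, against 3.73% of all tested genes. With the replicate block 2 of the 20 were higher, against 3.79%, and after quantile normalization 2, against 3.23%. Of 18 monocyte and dendritic cell genes, 1 was lower as reported, against 2.07%, and 3 with the replicate block, against 2.06%. The sign of small differences turned: Irf2 was -0.043 after quantile normalization, and with 1 array left out Irf1 lay between -0.23 and 0.26, Irf2 between -0.34 and 0.45, Irf3 between -0.058 and 0.22 and Irf4 between -0.23 and 0.094. The median of the tested members lay between -0.12 and 0.12. With no detection p-values in use, dim rows such as that of Irf7 have no known distance from background. The causes of these changes were not tested.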
